A study of Mus musculus with 9 samples.

Results

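The Serpin gene family was examined in innate lymphocytes sorted from the epithelium of mouse small intestine. Its members were taken as the rows of the deposited table that carried a single gene symbol beginning with Serpin, with 1 row for each gene. This gave 48 genes of 19938 with a single symbol, each of them measured by 1 row. The cells were CD3- CD45+ lymphocytes from the epithelial fraction of NOD SCID mice aged 8 to 10 weeks, a strain that largely lacks mature T and B cells, and were sorted to a purity above 98%. They were divided by Ly49E, an inhibitory-type receptor of the Ly49 family known from natural killer cells, and by CD8aa, the homodimer of the CD8 alpha chain. Of the 3 populations, Ly49E+CD8aa+ cells carried both markers, while Ly49E+CD8aa- and Ly49E-CD8aa+ cells carried one each. RNA of each was hybridised to 3 arrays of the Affymetrix Mouse Gene 1.0 ST type, labelled as biological replicates. All populations came from the same strain, and none was treated. The labels do not state the number of mice per array.

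Serpins are proteins of one fold, and most of them inhibit proteases. The target protease cuts an exposed loop of the serpin, the serpin then changes shape, and the protease is trapped in a covalent complex, so that each serpin molecule is used once. Clade B serpins mostly stay inside the cell, where several of them protect cytotoxic lymphocytes and phagocytes from their own granule proteases, while most other clades are secreted into plasma or tissue fluid. The name is wider than the function, since Serpinh1 encodes a collagen chaperone, Serpina6 and Serpina7 encode carriers of hormones, and Serpina4-ps1 is annotated as a pseudogene.

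The deposited values were log2 expression values after RMA, a method that corrects, normalizes and summarises probe signals, so a difference of 1 is a doubling of signal. The Ly49E comparison is Ly49E+CD8aa+ minus Ly49E-CD8aa+, the CD8aa comparison is Ly49E+CD8aa+ minus Ly49E+CD8aa-, and the single-marker comparison is Ly49E+CD8aa- minus Ly49E-CD8aa+, so each pair of them shares 3 arrays. Differences are log2 values in that direction. Levels of different genes were not compared, since probes differ in brightness, except where gene means were ranked for filters on low values. A gene was called when its Benjamini-Hochberg adjusted p from limma, over all 19938 genes, was under 0.05. Pearson correlations between arrays of one population, across rows, which do not count as replicates, ran from 0.9807 to 0.9861. The sort labels were followed by Klra5, which encodes Ly49E, with 11.40 and 11.43 in the Ly49E+ populations and 6.59 in Ly49E-CD8aa+, and by Cd8a, with 12.55 and 12.58 in the CD8aa+ populations and 11.42 in Ly49E+CD8aa-. Lymphocyte markers, over 15 measured genes, averaged 11.17 to 11.19 per array in Ly49E+CD8aa- cells. They averaged 10.11 to 10.20 in Ly49E+CD8aa+ and 10.10 to 10.19 in Ly49E-CD8aa+ cells. These means include Ncr1, Klrk1 and Klrc1, with differences of -5.44, -5.46 and -5.05 in the CD8aa comparison. The median difference over the 15 genes was 0.00724 in the CD8aa comparison and -0.0299 in the single-marker comparison. Ptprc, which encodes CD45, had means of 11.83 in Ly49E+CD8aa+, 11.82 in Ly49E+CD8aa- and 11.85 in Ly49E-CD8aa+ cells. Epithelial markers were read on all arrays, with enterocyte marker means of 7.46 to 8.18 over 18 genes, and they were highest on the array numbered 1 of each population (8.14, 8.18 and 8.17).

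Of the 48 Serpin genes, 2 differed between populations, and both were intracellular clade B inhibitors. Serpinb1a was 9.11- and 9.99-fold higher in Ly49E+CD8aa- cells than in the CD8aa+ populations, and Serpinb6a was 1.66- to 1.70-fold lower there. The other 46 genes were called in no comparison. Over the 3 populations together, limma's F test called the same pair (adjusted p = 0.000983 for Serpinb1a and 0.0478 for Serpinb6a), 4.17% of the Serpin genes beside 2.03% of all genes.

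Serpinb1a encodes an inhibitor of neutrophil-type granule proteases such as elastase, cathepsin G and proteinase 3. It read 9.05, 8.73 and 8.62 on the Ly49E+CD8aa- arrays. Ly49E+CD8aa+ cells gave 6.17, 5.08 and 5.58, and those of the Ly49E-CD8aa+ sort 6.21, 5.10 and 5.13. Every Ly49E+CD8aa- array lay above every array of the other populations, while the CD8aa+ populations overlapped. The means were 8.80 ± 0.222, 5.61 ± 0.545 and 5.48 ± 0.632 (log2, SD, n = 3) in the same order. In the CD8aa comparison the difference was -3.19 (SE 0.335, limma adjusted p = 0.0012), a 9.11-fold lower signal with a 95% interval of 5.39 to 15.4. In the single-marker comparison it was 3.32 (SE 0.335, limma adjusted p = 0.000732), a 9.99-fold higher signal with an interval of 5.91 to 16.9. In the Ly49E comparison it was 0.13, with a 95% interval of -0.63 to 0.89, and was not called. In sorted cells measured in bulk, a difference in the share of cells that express a gene and one in RNA per cell cannot be told apart.

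Within each population the array numbered 1 gave the highest Serpinb1a value, as it did for the enterocyte marker mean, and the part of epithelial RNA in that spread was not tested. With all 3 arrays numbered 1 left out, a setting chosen after the data were seen, the difference was -3.34 in the CD8aa comparison (limma adjusted p = 0.00377) and 3.56 in the single-marker comparison (0.00289). The enterocyte marker mean covered 7.70 to 8.14 on the Ly49E+CD8aa+ arrays, 7.48 to 8.18 for Ly49E+CD8aa- cells and 7.46 to 8.17 among Ly49E-CD8aa+ cells.

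**Figure D1:**
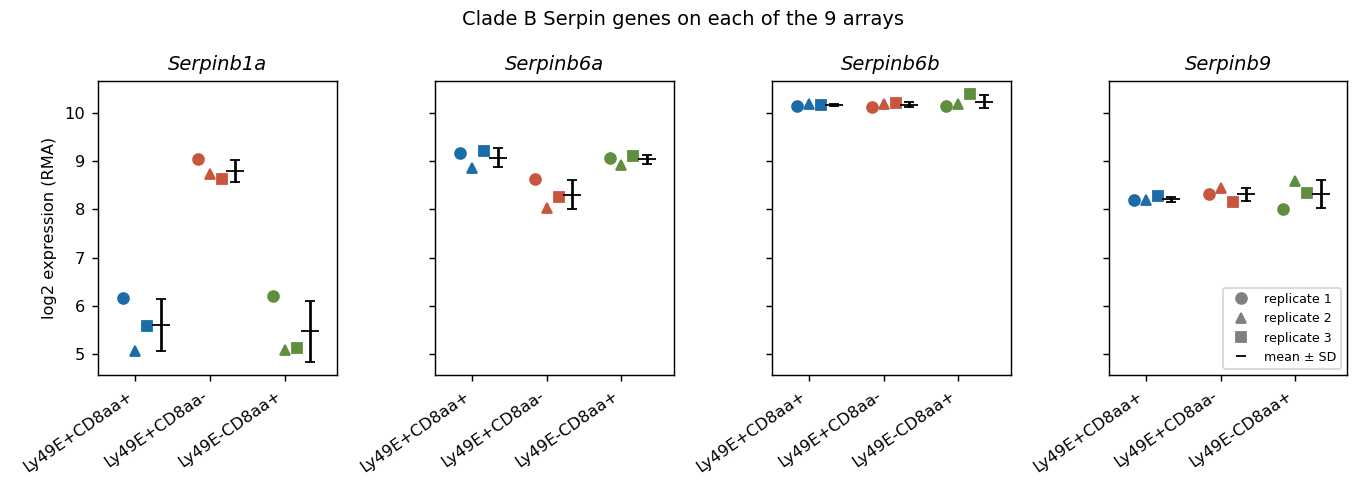
Log2 expression (RMA) of 4 clade B genes on each of the 9 arrays, with one panel per gene; circles, triangles and squares are replicates 1, 2 and 3, and black bars are the mean ± SD of 3 arrays. The Serpinb1a values of Ly49E+CD8aa- lie at 8.62 to 9.05 against 5.08 to 6.21 in the other populations, the Serpinb6a values of Ly49E+CD8aa- lie lowest at 8.03 to 8.63, and those of Serpinb6b and Serpinb9 overlap in all populations; heights are not comparable between panels.

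Serpinb6a encodes an inhibitor of cathepsin G and trypsin-like proteases that is widely made by leukocytes and epithelial cells. It read 9.16, 8.85 and 9.21 on the Ly49E+CD8aa+ arrays, and Ly49E-CD8aa+ cells gave 9.06, 8.93 and 9.11. In Ly49E+CD8aa- cells it read 8.63, 8.03 and 8.25, so all arrays of that population lay below all others. The means were 9.07 ± 0.196, 9.04 ± 0.0922 and 8.30 ± 0.300 (log2, SD, n = 3) in the same order. The CD8aa comparison gave 0.77 (SE 0.151, limma adjusted p = 0.0401), a 1.70-fold difference with a 95% interval of 1.34 to 2.16. The single-marker comparison gave -0.73 (SE 0.151, limma adjusted p = 0.0435), or 1.66-fold lower signal with an interval of 1.31 to 2.11. The Ly49E comparison gave 0.04, with an interval of -0.31 to 0.38.

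The Serpinb6a call was close to the threshold, and it was lost without any 1 of 7 arrays while the difference kept its sign. Over the 18 alternatives the difference ran from 0.63 to 0.93 in the CD8aa comparison and from -0.89 to -0.60 in the single-marker comparison. In the CD8aa comparison its limma adjusted p was 0.154 and 0.157 when Ly49E+CD8aa+ replicate 1 or 3 was left out. It was 0.115 and 0.142 once replicate 2 or 3 of Ly49E+CD8aa- was dropped, and 0.0796, 0.0703 and 0.0724 after dropping replicate 1, 2 or 3 of Ly49E-CD8aa+. In the single-marker comparison the values were 0.0788, 0.0671, 0.129, 0.15, 0.141, 0.0968 and 0.148 for the same arrays in that order, and 0.0544 with arrays centred on their medians. Leaving out Ly49E+CD8aa+ replicate 2 or Ly49E+CD8aa- replicate 1 kept the call in both comparisons.

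Serpinb6b and Serpinb9 encode the inhibitors that bear most directly on cytotoxic granules, of granzyme A and granzyme B respectively. Serpinb6b read 10.13, 10.18 and 10.17 on the Ly49E+CD8aa+ arrays, 10.12, 10.18 and 10.21 for Ly49E+CD8aa- cells, and 10.13, 10.18 and 10.38 among Ly49E-CD8aa+ cells. The populations overlapped, with only replicate 3 of Ly49E-CD8aa+ above 10.21. Its difference was -0.07 in the Ly49E comparison (95% interval -0.24 to 0.11), -0.01 in the CD8aa comparison (-0.18 to 0.17) and -0.06 in the single-marker comparison (-0.23 to 0.11). Serpinb9 read 8.19, 8.19 and 8.27 on the Ly49E+CD8aa+ arrays, 8.31, 8.45 and 8.16 for Ly49E+CD8aa- cells, and 8.01, 8.59 and 8.35 among Ly49E-CD8aa+ cells. The populations overlapped again, and Ly49E-CD8aa+ held both the lowest and the highest array. The differences were -0.10 (-0.41 to 0.21), -0.09 (-0.40 to 0.22) and -0.01 (-0.32 to 0.30) in the same order of comparisons. With 3 arrays per population, true differences within these intervals were not excluded.

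The DNA before the annotated start sites is shown for Serpinb6a and Serpinb6b, members of one subfamily on chromosome 13 of which the first was called and the second was not. The 250 bases before each start are those of RefSeq for GRCm38.p6, and the array does not tell which start of Serpinb6a was used. No such bases were available here for Serpinb1a, and the Serpinb6a call was close to the threshold. Capitals mark matches, on either strand, to CCGGAA (the core of ETS factor sites), GGGCGG (the GC box), TGTGGT (Runx factors) or TCACAC (T-box factors).
Serpinb6a, first start, chr13:34002795-34003044, minus strand: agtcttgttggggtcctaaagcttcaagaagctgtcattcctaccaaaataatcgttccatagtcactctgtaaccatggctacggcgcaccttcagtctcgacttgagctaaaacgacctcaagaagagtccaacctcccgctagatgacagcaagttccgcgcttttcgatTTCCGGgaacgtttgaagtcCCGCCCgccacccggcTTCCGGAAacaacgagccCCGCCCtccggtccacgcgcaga
Serpinb6a, second start, chr13:33936084-33936333, minus strand: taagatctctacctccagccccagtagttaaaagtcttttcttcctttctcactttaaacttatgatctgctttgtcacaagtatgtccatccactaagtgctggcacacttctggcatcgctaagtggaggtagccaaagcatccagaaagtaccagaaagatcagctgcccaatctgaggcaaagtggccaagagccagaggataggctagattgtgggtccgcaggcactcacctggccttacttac
Serpinb6b, chr13:32965011-32965260, plus strand: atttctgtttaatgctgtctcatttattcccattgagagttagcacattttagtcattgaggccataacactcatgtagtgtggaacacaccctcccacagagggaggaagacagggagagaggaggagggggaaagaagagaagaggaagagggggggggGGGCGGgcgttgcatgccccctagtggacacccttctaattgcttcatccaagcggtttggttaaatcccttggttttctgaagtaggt
The window before the first Serpinb6a start held 3 matches to CCGGAA, of which a pair overlap on opposite strands, and 2 to GGGCGG. The Serpinb6b window held 1 match to GGGCGG, and that before the second Serpinb6a start held none of the motifs. Over the 32851 windows of this length in the table, 12% held CCGGAA, 32.7% GGGCGG, 14% TGTGGT and 12.3% TCACAC. These matches describe the letters only, and no binding was measured.

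Clade B as a whole held 24 of the 48 genes. The other measured members of the Serpinb1 and Serpinb6 subfamilies, which are related in sequence to the called genes, were not called, nor was any measured Serpinb9 gene. Serpinb1b and Serpinb1c had differences of 0.09 and -0.11 in the CD8aa comparison, and their values ran from 4.01 to 4.34 and from 3.26 to 3.47 over the 9 arrays. Serpinb6c, Serpinb6d and Serpinb6e had differences of 0.09, -0.01 and 0.11 in that comparison, and Serpinb9b, Serpinb9c, Serpinb9d and Serpinb9e of 0.03, 0.04, -0.02 and 0.14. Because genes of a subfamily are similar in sequence, probes of one may bind RNA of another, and this was not tested.

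Along chromosome 13, RefSeq lists 17 Serpin genes and pseudogenes, of which 13 were measured here. Serpinb1a came first and Serpinb6a last in that order, and the 11 measured genes between them, Serpinb6b and Serpinb9 included, were not called. Those 11 genes had differences of -0.11 to 0.14 in the CD8aa comparison and of -0.23 to 0.04 in the single-marker comparison.

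**Figure D2:**
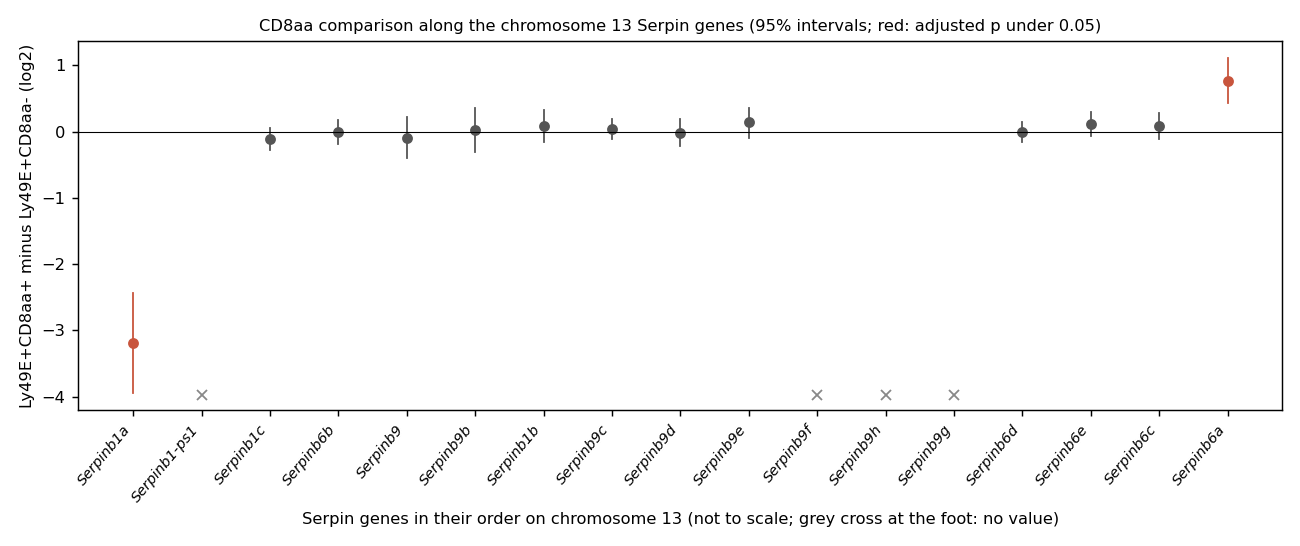
Log2 difference of Ly49E+CD8aa+ minus Ly49E+CD8aa- with its 95% interval (n = 3 arrays each) for the Serpin genes of chromosome 13 in their order, not to scale; red marks an adjusted p under 0.05 and a grey cross at the foot marks a gene with no value. Serpinb1a at the left end stands at -3.19 and Serpinb6a at the right end at 0.77, with the 11 genes between them at -0.11 to 0.14.

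The other 11 clade B genes lie on chromosome 1 in RefSeq. Serpinb8, which encodes an inhibitor of furin-like proteases, had the largest difference among the 46 uncalled genes in the CD8aa comparison. It read 4.90, 5.30 and 4.88 on the Ly49E+CD8aa+ arrays, 5.33, 5.18 and 5.46 for Ly49E+CD8aa- cells and 4.96, 5.18 and 5.30 among Ly49E-CD8aa+ cells. The populations overlapped, and the difference was -0.30 (SE 0.135, limma adjusted p = 0.543). Serpinb2, which encodes an inhibitor of plasminogen activators made by activated myeloid cells, lay between 3.9 and 4.2 on all arrays, with differences of -0.09, -0.07 and -0.02 in the Ly49E, CD8aa and single-marker comparisons.

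Clade A, which includes plasma inhibitors such as alpha antitrypsin and antichymotrypsin that the liver secretes, held 15 genes, and 0 were called in any comparison. The largest differences were 0.14 for Serpina1d in the Ly49E comparison, 0.16 for both Serpina1d and Serpina1f in the CD8aa comparison, and 0.24 for Serpina3a in the single-marker comparison. For Serpina3a this rested on 1 Ly49E+CD8aa- array at 4.56, beside 4 and 3.9 in the same population, while Ly49E-CD8aa+ cells gave 3.85, 3.97 and 3.91. Serpina1c had a wide spread within populations, running from 2.61 to 3.70 over the 3 Ly49E-CD8aa+ arrays (SD 0.566), and its interval in the CD8aa comparison was -0.81 to 0.51.

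The other 9 members came from clades C to I, and 0 of them were called. They include Serpinc1 (antithrombin), Serpind1 (a heparin-dependent thrombin inhibitor), Serping1 (the inhibitor of the first complement component), Serpinf1 (pigment epithelium-derived factor), Serpinf2 (antiplasmin) and Serpini1 (neuroserpin, an inhibitor of tissue plasminogen activator). Serpinh1 had the largest difference of all 48 genes in the Ly49E comparison, -0.20 (limma adjusted p = 1), with values of 5.30, 5.24 and 4.98 against 5.59, 5.28 and 5.28. Its populations overlapped. Serpini1 had differences of -0.13, 0.01 and -0.14 in the Ly49E, CD8aa and single-marker comparisons, Serping1 of -0.06, 0.03 and -0.10, and Serpinf1 of -0.03, 0.02 and -0.05.

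Most members lay low on the arrays. With a filter on low values at the 25th percentile of gene means (4.72), 15 of the 48 genes passed. With a filter at the median (5.95), 4 passed: Serpinb1a, Serpinb6a, Serpinb6b and Serpinb9. Serpinb1a passed the latter only through Ly49E+CD8aa- (mean 8.80), with means of 5.61 and 5.48 in the other populations. Of the 48 genes, 33 fell below the lower filter, 11 of them in clade A and 19 in clade B. No detection calls were used, probes differ in brightness, and low values are not evidence of absent transcripts. In 21 members (43.8%) a single value was repeated exactly on 4 or more of the 9 arrays, beside 18.4% of all genes. Below the 25th percentile of gene means, the shares were 54.5% of members (18 genes) and 31.9% of all genes. For Serping1 and Serpinb7 the repeat covered 6 arrays, so that the SD of Serping1 in Ly49E+CD8aa+ was 0.

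In the Ly49E comparison, 0 of 48 Serpin genes were called, beside 26 of all genes (0.13%). At an unadjusted limma p under 0.05 there were also 0 Serpin genes, against 834 of all genes (4.18%). Differences ran from -0.20 to 0.14, with a median of -0.00346 beside -0.000488 for all genes, and the 95% interval of a member reached 0.20 to either side at the median and 0.76 at most. Arrays did not overlap in 1 member, Serpini2 at 0.14 (2.08%, beside 6.25% of all genes).

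In the CD8aa comparison, 2 of 48 Serpin genes were called (4.17%, beside 1.7% of all genes). Serpinb6a was the 1 higher (beside 0.476% of all genes) and Serpinb1a the 1 lower (beside 1.22%). The other 46 ran from -0.30 to 0.16, with adjusted p of 0.543 or more, and the median over the members was 0.0212 beside 0.0253 for all genes. Arrays did not overlap in 3 members (6.25%, beside 12.9% of all genes), the called pair and Serpinb1c. The count of 2 became 1 without each of 7 arrays and with the 6 arrays of the comparison alone, where Serpinb6a had an adjusted p of 0.16.

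In the single-marker comparison, 2 of 48 were called (4.17%, beside 2.15% of all genes), Serpinb1a higher (beside 1.35%) and Serpinb6a lower (beside 0.802%). The other 46 ran from -0.23 (Serpinb9e, limma adjusted p = 0.462) to 0.24, and the median was -0.0237 beside -0.0243 for all genes. Arrays did not overlap in 5 members (10.4%, beside 12.7% of all genes). Of these, Serpinb9c, Serpine3 and Serpini2 had differences of -0.13, -0.16 and 0.07 that were not called. The count of 2 became 1 without the same 7 arrays, with the 6 arrays of the comparison alone (Serpinb6a adjusted p 0.116) and with median centring.

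**Figure D3:**
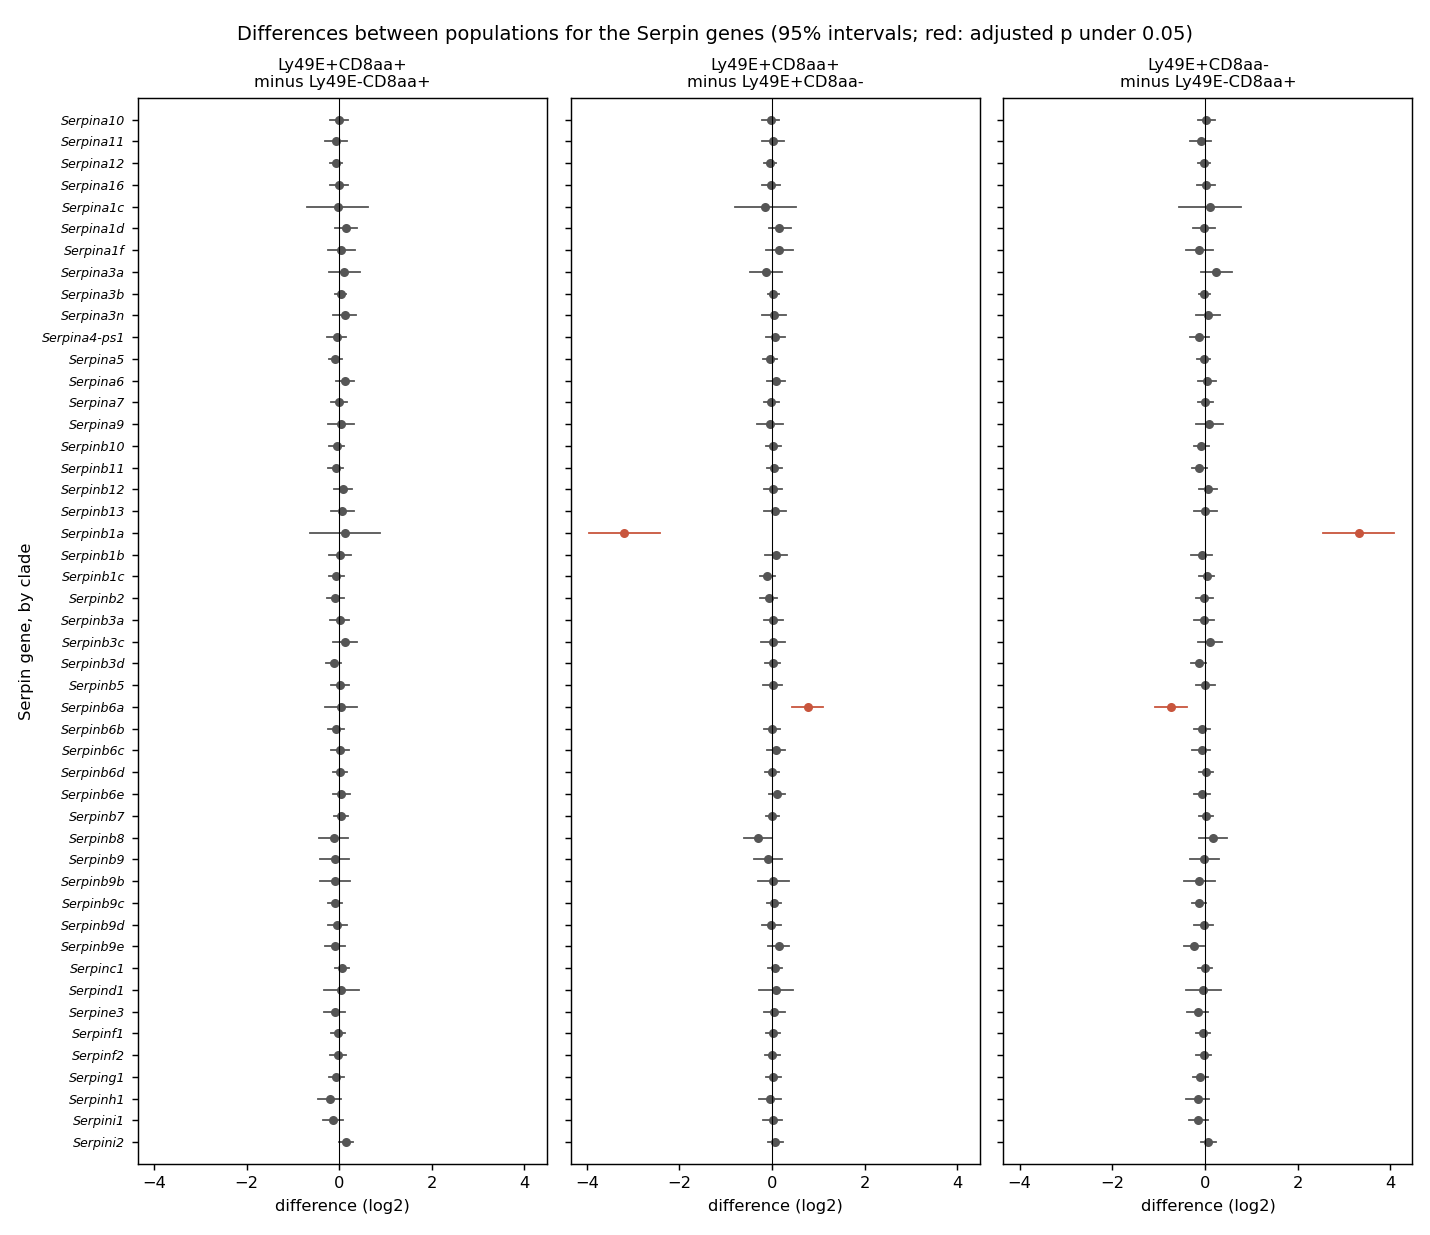
Log2 differences of the 48 Serpin genes with 95% intervals in the 3 comparisons (n = 3 arrays per population), ordered by clade; red marks an adjusted p under 0.05. In the left panel all points lie between -0.20 and 0.14, and in the other panels Serpinb1a (-3.19 and 3.32) and Serpinb6a (0.77 and -0.73) stand away from the rest.

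Proteases and other inhibitors were read from lists of their own. The list of granzymes and other leukocyte serine proteases held 21 genes, some of them shared with the marker lists. Of these, 1 was called in the CD8aa comparison and 1 in the single-marker comparison (beside 1.7% and 2.15% of all genes). Both times this was Prf1, which encodes the pore-forming granule protein perforin and not a protease, so no protease of this list was called. Prf1 had 0.58 in the CD8aa comparison (SE 0.1, limma adjusted p = 0.0197) and -0.76 in the single-marker comparison (SE 0.1, limma adjusted p = 0.00393). Like Serpinb6a it was lowest in Ly49E+CD8aa- (8.92 against 9.5 and 9.68). The list's medians were 0.00279, 0.0787 and -0.0693 in the Ly49E, CD8aa and single-marker comparisons, beside -0.000488, 0.0253 and -0.0243 over all genes. Gzma, the target of Serpinb6b, read 12.74 to 12.91 over the 9 arrays and was not called. Gzmb, the target of Serpinb9, read 12.53, 12.61 and 12.53 on the Ly49E+CD8aa- arrays, below all arrays of the other populations (12.67 to 12.80). Its differences of 0.17 in the CD8aa comparison (95% interval 0.03 to 0.31, limma adjusted p = 0.372) and -0.19 in the single-marker comparison (-0.33 to -0.05, 0.255) were not called. Elane, Ctsg and Prtn3, the neutrophil proteases that Serpinb1a inhibits, were not called and read 4.74 to 5.32, 3.61 to 3.88 and 5.14 to 5.64.

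Cysteine cathepsins and caspases had called members in each comparison, 1, 2 and 1 of 19 measured, beside 0.13%, 1.7% and 2.15% of all genes, and each was lower in the first-named population. Ctsh, a lysosomal aminopeptidase, had -1.77 in the Ly49E comparison (SE 0.223, limma adjusted p = 0.0303) and -1.74 in the CD8aa comparison (0.00393). Casp4, an inflammatory caspase, had -0.84 in the CD8aa comparison (SE 0.162, limma adjusted p = 0.036), and Ctsl, a lysosomal endopeptidase, -1.59 in the single-marker comparison (SE 0.26, limma adjusted p = 0.0137). The list's medians were -0.0518, -0.00366 and -0.034. Of 21 proteases of the plasminogen, coagulation, kallikrein and epithelial surface systems, 0 were called in any of the 3 comparisons, with medians of -0.0422, 0.037 and -0.055. Of 34 other protease inhibitors (cystatins, Timps, Kunitz and Kazal types and others) 1 was called, Cst7, the cystatin F gene of cytotoxic cells, with -0.34 in the single-marker comparison (SE 0.0689, limma adjusted p = 0.0386). The medians were 0.015, 0.0507 and -0.0519.

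Markers of other cells were read beside these results. The called shares of all genes were 0.13%, 1.7% and 2.15% in the Ly49E, CD8aa and single-marker comparisons. Mast cell and granulocyte markers had 1 of 16 called where Serpinb1a was called, Kit, which innate lymphocytes also express (-1.17 in the CD8aa and 1.29 in the single-marker comparison). Their array means were 4.73 to 4.89 for Ly49E+CD8aa+, 4.81 to 4.92 for Ly49E+CD8aa- and 4.71 to 4.87 for Ly49E-CD8aa+ cells. The neutrophil genes S100a8, S100a9 and Mpo read at most 3.87, 4.97 and 5.32. Enterocyte (18), secretory epithelium (13) and stroma and endothelium (14) markers had 0 called in any of the 3 comparisons. Array means in the order just given were 5.61 to 5.96, 5.43 to 5.93 and 5.52 to 5.86 for secretory epithelium and 5.47 to 5.53, 5.39 to 5.46 and 5.43 to 5.55 for stroma and endothelium.

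Macrophage markers had 0 of 14 called in the CD8aa comparison and 2 lower in the other comparisons, Cybb and Mpeg1, both highest in Ly49E-CD8aa+, with array means of 5.15 to 5.18, 5.02 to 5.13 and 5.37 to 5.62. Dendritic cell markers had 3, 1 and 5 of 17 lower in the Ly49E, CD8aa and single-marker comparisons and 1 higher in the last. The called shares of all genes were 0.13%, 1.7% and 2.15%. Array means of the dendritic cell markers were 5.90 to 5.99, 6.04 to 6.09 and 6.43 to 6.71. B and plasma cell markers had 1, 1 and 1 of 9 lower and 1 higher in the last, with array means of 5.40 to 5.50, 5.41 to 5.55 and 5.50 to 5.60. Of 15 markers of innate and intraepithelial lymphocytes, 0, 5 and 6 were called, beside 0.13%, 1.7% and 2.15% of all genes. In the CD8aa comparison Klrk1 (-5.46), Ncr1 (-5.44) and Klrc1 (-5.05) were lower, while Il2rb (0.4) and Itgae (0.31) were higher. In the single-marker comparison Ncr1 (5.29), Klrk1 (5.2), Klrc1 (5.08) and Cd160 (0.86) were higher, while Il2rb (-0.36) and Itgae (-0.34) were lower. The part of these cells in the Serpin differences was not tested.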

How the data were processed

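RNA of 9 sorted samples was amplified and hybridised to Mouse Gene 1.0 ST arrays, per the labels. The deposited values were log2 expression values made with RMA, per the submitters' processing notes. No source used here gives its version, build or annotation. The range of the values fits log2 (1.84 to 13.84, array medians 5.76 to 5.82). No depth applies, and the number of arrays limits precision.

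Rows with 1 platform symbol (21789 of 35556) were kept, the row with the highest mean standing for a gene, which left 19938 genes. All 48 Serpin genes matched a RefSeq record by identifier. Promoter windows were present for 41. A model with a mean per population was fitted to all 9 arrays with limma 3.58.1 in R 4.3.3 (prior degrees of freedom 3.08, residual 6), without a block. Tests were 2-sided with Benjamini-Hochberg adjustment over 19938 genes, called under 0.05. The labels do not say whether the replicates came from separate mice, so p-values measure the spread between these samples. The script was tested on simulated data. Several rows naming more than 1 Serpin gene were left out.

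Named genes were all called Serpin genes and a fixed list of 19, of which 12 were measured (the others are not analysed here). The 5 Serpin genes with the largest difference in each comparison were named too. From each of 12 lists, up to 4 called genes per comparison were planned. All called lymphocyte markers were named instead, and the called dendritic cell and B and plasma cell markers were not named. Serpinb subfamily members and neutrophil proteases were named after their values were seen. Members and lists were chosen with earlier results of these data known. The alternatives were a replicate block, the 6 arrays of a comparison alone, 2 filters on dim genes, quantile normalization again, median centring, a variance trend, the mean of a gene's rows and each array left out.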

Additional observations from a re-analysis of the deposited data

How the results depend on the processing

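Of the counts of Serpin genes called, the 0 of the Ly49E comparison stayed 0 under all 18 alternatives. Of these, the mean of a gene's rows could not change a Serpin value, since each Serpin gene had 1 row. The counts of 2 in the other comparisons and by the F test became 1 with all 3 arrays numbered 1 left out, an alternative chosen after the data were seen. They also became 1 with the 6 arrays of the comparison alone, for both pairwise comparisons, and with arrays centred on their medians, for the single-marker comparison and the F test. Leaving out 1 array at a time gave 1 to 2 in each of the 3. In every such case Serpinb6a was the gene lost. Serpinb1a passed in all 18, with differences of -3.47 to -2.92 and 3.13 to 3.68 and limma adjusted p from 6.77e-05 to 0.00934. The filter at the median is no support for this call, since Serpinb1a passed that filter only through Ly49E+CD8aa-. Its mean was 8.80 there and 5.61 and 5.48 in the other populations, with the filter at 5.95. Serpinb6a passed in 9 and 8 of 18 (limma adjusted p from 0.0115 to 0.16). With the replicate number as a block the counts were 0, 2, 2 and 2, with adjusted p of 8.83e-05 and 6.77e-05 for Serpinb1a and 0.0129 and 0.0142 for Serpinb6a. Among all genes the calls moved by over 1.5 times in the Ly49E comparison, from 26 to 17 with the block, 15 with dim genes under the median left out, 0 with its 6 arrays alone and 5 to 32 with 1 array left out. In the single-marker comparison 429 became 263 with its 6 arrays alone, and the F test's 405 became 248 without Ly49E+CD8aa- replicate 3. Without the arrays numbered 1, the all-gene calls were 4, 121, 165 and 108 in the Ly49E, CD8aa and single-marker comparisons and the F test. The numbers were not taken to pair the samples, since the labels do not say that they do. Correlations between arrays were taken after subtracting each population's mean, and they do not settle the question. Of the same-numbered pairs, 4 of 9 correlated above 0.1 (range -0.0627 to 0.222). Among these 4, 3 were the pairs among the arrays numbered 1 (0.127, 0.172 and 0.222). Pairs with different numbers ran from -0.169 to 0.103. By the highest correlation, 6 of 9 arrays matched one of their own number, and 3 of 9 did so in both other populations. None of the 16 named Serpin genes had a called difference that changed sign, and Serpinb6a was the one whose call changed. The cause of the lost calls was not tested. With 3 arrays per population, small differences in dim genes cannot be seen.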

Other observations

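Rows that named several Serpin genes belong to no comparison above. There were 5, 2 of them shared by 5 Serpina1 genes and 3 by 4 Serpinb9 genes. Their log2 values ran from 3.67 to 5.67 over the 9 arrays, and differences of population means ran from -0.15 to 0.06, without a test.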
